A study of Mus musculus with 16 samples.

Results

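Of 26704 OCT4 peaks in mouse embryonic stem (ES) cells, 629 (2.36%) had their midpoint in an exon of a protein-coding gene and more than 1 kb from the start of every annotated transcript. Of these exonic peaks, 186 lay in coding exons, 318 in 3′ UTRs, 8 in 5′ UTRs and 117 in other exons, meaning exon bases outside any annotated coding sequence or UTR. Where transcripts disagreed on a base, coding sequence was given priority over 3′ UTR, 3′ UTR over 5′ UTR, and 5′ UTR over other exon. In all, 1699 peaks had an exonic midpoint, and the other 1070 were left out because a transcript start was within 1 kb. The peaks were hosted by 598 genes, counting 1 gene per peak, and the midpoint of 60 of them also lay in a further gene.

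ChIP-seq, in which DNA bound by a protein is precipitated with an antibody and sequenced, was performed on ES cells to follow chromatin after loss of SOX2 or OCT4. The peaks come from 2TS22C cells, an ES cell line whose SOX2 is supplied by a transgene that doxycycline represses, so that untreated cells are SOX2 ON and cells treated for 26 h are SOX2 OFF. OCT4 was profiled in 2 replicates of each state, 4 of the 16 libraries in 8 groups, with all cells grown in serum, LIF and a pair of kinase inhibitors. The deposited list joins OCT4 peaks of these cells and gives coordinates alone, without height, depth or library, and which of the 4 libraries entered it is not stated, so SOX2 ON and SOX2 OFF cannot be told apart here.

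OCT4 is a POU-domain transcription factor that recognises an octamer and, in ES cells, often binds beside the HMG-box factor SOX2 on a composite element made of a SOX half-site followed by the octamer. Such elements are best known from promoters and from enhancers between genes and in introns, but exons can also hold regulatory sequence: the classical OCT4–SOX2 enhancer of Fgf4, a growth factor gene of the early embryo, lies in the 3′ UTR of its last exon. In coding exons the same bases also encode protein, whereas 3′ UTRs carry signals for the stability and translation of the messenger RNA.

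The sequences below are the closest composite matches in coding-exon and 3′ UTR peaks, on the strand of the match and written 5′ to 3′, with build mm10 (GRCm38) coordinates. The composite motif was the SOX half-site CATTGT, the base T and the octamer ATGCAAAT, searched on both strands with at most 3 mismatches over its 15 bases. No coding-exon or 3′ UTR peak had a match with fewer than 2 mismatches, and those shown have 2. Of peaks in introns more than 1 kb from transcript starts, 0.291% had a match with at most 1 mismatch. A match with at most 2 was present in 1.61% of coding-exon, 2.2% of 3′ UTR and 2.26% of such intronic peaks. Capitals mark the composite match. The 3 in coding-exon peaks were in Utrn, the gene of utrophin (chr10:12726115-12726144), in Ncoa1, a nuclear receptor coactivator (chr12:4295478-4295507), and in Slc25a43, a mitochondrial carrier (chrX:36775681-36775710).
Utrn: gacatgctCATTATTATGTAAATtcagtca
Ncoa1: agtctgtCATTGTTATGCAGAAgtcctgag
Slc25a43: aattgaggCATTTTCATGCAAATtgtactg

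The 7 matches of this quality in 3′ UTR peaks were in D1Ertd622e (chr1:97622969-97622998), Ptges2, a prostaglandin E synthase (chr2:32403799-32403828), Coa7, a cytochrome c oxidase assembly factor (chr4:108338921-108338950), Tpm1, a tropomyosin (chr9:67023715-67023744), Zfp652, a zinc-finger gene (chr11:95768352-95768381), Tnrc6b, of microRNA silencing (chr15:80937526-80937555), and Ercc4, a DNA repair nuclease subunit (chr16:13148280-13148309). Among the 10 matches printed, the octamer was intact in Slc25a43, Coa7, Tnrc6b and Ercc4, and the SOX half-site in Ncoa1, Tpm1 and Zfp652.
D1Ertd622e: aatctggaTATTGTTATGCAAAGctggggg
Ptges2: tgaatttCATTCTTATGCAGATgaggtatc
Coa7: tctaagacCTCTGTTATGCAAATtaggata
Tpm1: ggtacagCATTGTTACGCAAACagaagacg
Zfp652: acagtggCATTGTTATGCAATAacagctca
Tnrc6b: tgggatgTATTATTATGCAAATgtgaattt
Ercc4: aaagaatgAATTGCTATGCAAATgatcaat

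The peak in the 3′ UTR of Fgf4 is shown for its place among known OCT4–SOX2 enhancers (chr7:144864393-144864422), and capitals mark its match to the POU variant ATGCTAAT. It had no composite match within 3 mismatches. The composite as searched has its half-sites 1 base apart, whereas the textbook SOX2 site of the Fgf4 enhancer stands a little further from the POU site.
Fgf4: tctttgtttggATGCTAATgggatacttaa

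The Fgf4 peak was 599 bp wide and lay wholly in the last of 3 exons, 3136 bp from the nearest transcript start and 1583 bp from the stop codon. The next OCT4 peak was 6273 bp away, and the Fgf4 peak held no exact octamer ATGCAAAT and no exact SOX core (CCATTGT or CCTTTGT). The printed Fgf4 bases begin with tctttgt, which differs from the SOX core word CCTTTGT in its first base only. The POU variant word was added after the values were seen. It was present in the central 200 bp of 10 of 318 3′ UTR peaks (3.14%, 95% Wilson interval 1.72 to 5.69%) and 7 of 186 coding-exon peaks (3.76%, 1.83 to 7.56%), against 5.3% of distal intronic peaks. The Fgf4 match lay 114.5 bp from the midpoint, so it is not among these. Over whole peaks the word was present in 14 3′ UTR peaks (4.4%) and 10 coding-exon peaks (5.38%), against 7.57% of intronic peaks. In 200-bp exon windows without a peak it was present in 0.731% of 3′ UTR windows and 0.429% of coding windows.

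The coding-exon match of Ncoa1 lay inside exon 9 of 19, a long exon of 1339 bp that held the whole 614-bp peak, with the match 64.5 bp from the peak's midpoint. In Utrn, only 26% of the 655-bp peak was exonic, in exon 17 of 75 (170 bp), and the composite match lay outside that exon. Likewise in Slc25a43 the match lay outside exon 4 of 5 (135 bp), although 71.6% of the 598-bp peak was exonic. Of the 3 best composite matches in coding-exon peaks, 1 was therefore in the host exon itself. The exonic share counts exons of all transcripts, and whether the Slc25a43 match lay in an exon of another transcript was not checked. All 7 of the 3′ UTR peaks lay wholly in their exon, with the match 18 to 148 bp from the midpoint. Zfp652 had the most central match (18 bp) and D1Ertd622e the least (148.0 bp), the latter in an annotated last exon of 40044 bp.

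Coding-exon peaks were wider than most of the exons that held them. The host exon was 196.5 bp long at the median (middle 50% 126 to 1169 bp), the peak 326.5 bp (255.2 to 424 bp), and in 116 of 186 cases the exon was shorter than the peak. At the median 58.8% of a coding-exon peak was coding sequence. Just 43 peaks were wholly coding, and 74 had less than 50% of their bases in coding sequence. The 3′ UTR peaks had a median width of 337 bp in exons of 3181 bp, 316 of 318 were in the last exon of the transcript, and 287 were covered wholly by exons. Their midpoints lay 1425.5 bp past the stop codon at the median (486.5 to 2843.8 bp). The annotation of other exons was mostly of retained introns, with 97 of the 117 peaks on such transcripts and 20 on processed transcripts.

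**Figure D1:**
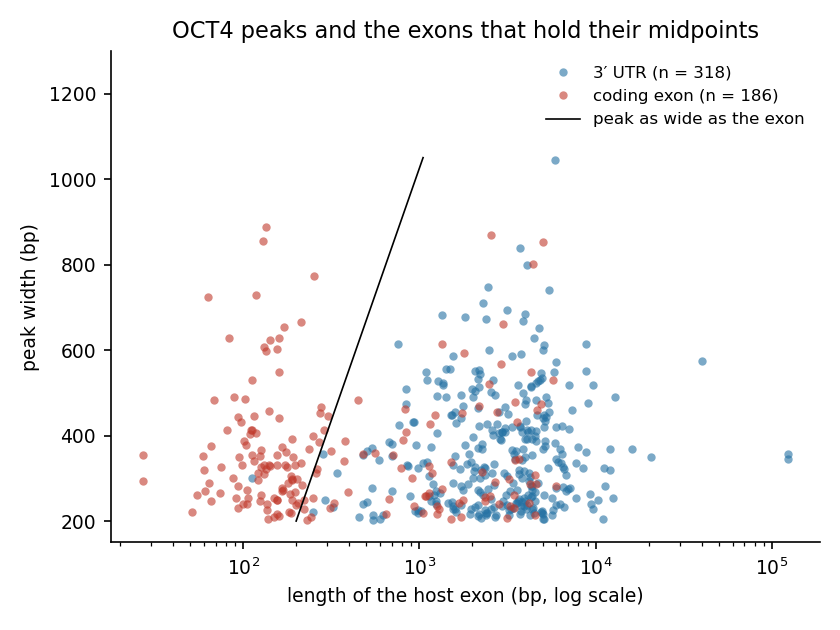
Each point is an OCT4 peak with its midpoint in a coding exon (red, 186 peaks) or a 3′ UTR (blue, 318 peaks), by the length of the host exon in bp (log scale) and the width of the peak in bp. Left of the line the peak is wider than the exon, as for 116 coding-exon peaks and 2 3′ UTR peaks.

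By width, the 3 largest coding-exon peaks were in Abcc4 (887 bp), an ABC transporter gene, Nsd1 (868 bp), which encodes a histone H3 lysine methyltransferase, and Etv5 (856 bp), an ETS factor gene. They differed in their relation to the exon. The Nsd1 peak lay wholly in exon 5 of 23, which is 2560 bp long, whereas 15.2% of the bases of each of the Abcc4 and Etv5 peaks were exonic, in exons of 135 and 130 bp. All 3 had a composite match with 4 mismatches and none within 3. Among 3′ UTR peaks the widest were in Vmn2r3, a vomeronasal receptor gene (1045 bp), Wipi2, of autophagy (838 bp), and Slc30a4, a zinc transporter gene (799 bp). The Vmn2r3 peak was 63.8% repeat-masked, meaning that the reference marks these bases as interspersed or simple repeats, against 13.1% for Wipi2 and 8.26% for Slc30a4.

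Peaks were less dense in coding exons than in 3′ UTRs and introns. There were 7.41 peak midpoints per Mb of coding sequence (95% Poisson interval 6.39 to 8.56, 25.1 Mb), 10.3 per Mb of 3′ UTR (9.2 to 11.5, 30.9 Mb) and 10.2 per Mb of intron (10 to 10.5, 873.1 Mb), all more than 1 kb from transcript starts. The coding interval did not overlap the 3′ UTR and intronic intervals, while the 3′ UTR interval held the intronic value. The density between genes, 7.91 per Mb over all bases, fell inside the coding interval. Other exons (9.97 per Mb, 8.24 to 11.9) and 5′ UTRs (12.1 per Mb, 5.21 to 23.8, from 8 peaks) could not be separated from introns. These intervals cover counting error only, since peaks of 1 list are not biological replicates.

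Repeats bear on these densities, because 95% of coding bases and 80.6% of 3′ UTR bases are outside masked sequence, against 70.6% of intron bases. Over bases that are not masked the values were 7.18 per Mb in coding exons (6.14 to 8.34), 10.2 in 3′ UTRs (9.03 to 11.6), 11.7 in introns (11.4 to 12) and 9.96 between genes (9.74 to 10.2). The coding interval then lay below both the intronic and the intergenic one, and the gap between coding exons and introns was wider than over all bases. The 3′ UTR and intronic intervals then overlapped.

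**Figure D2:**
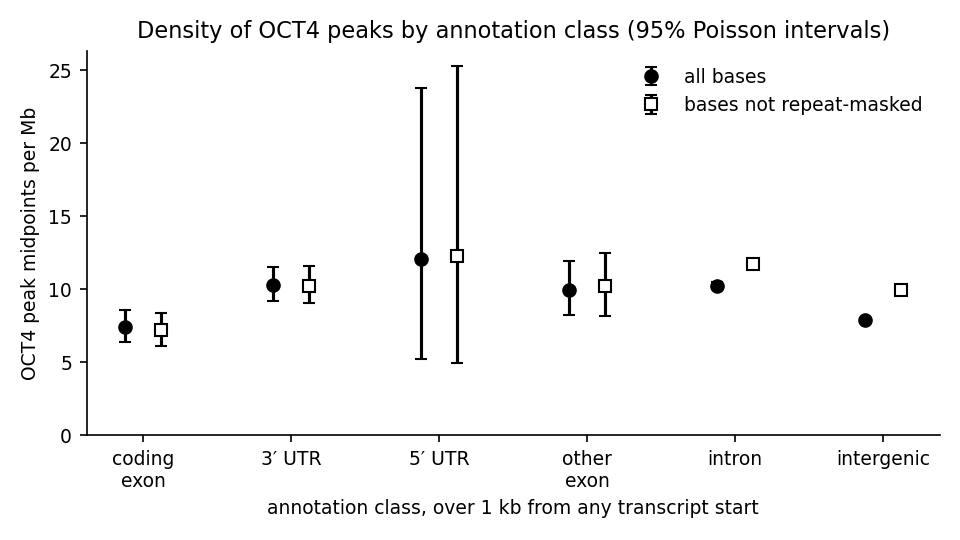
OCT4 peak midpoints per Mb (vertical axis) in 6 annotation classes more than 1 kb from any transcript start, over all bases (filled circles) or bases that are not repeat-masked (open squares), with 95% Poisson intervals. Coding exons sit at 7.41 and 7.18 per Mb, below 3′ UTRs at 10.3 and 10.2 and introns at 10.2 and 11.7.

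Density was then followed from inside coding sequence into the introns around it, with bins chosen after the values were seen. In coding stretches of up to 150 bp there were 67 peaks, or 7.44 per Mb (5.76 to 9.44), in those of 150 to 300 bp 6.74 (5.05 to 8.82), in those of 300 to 1000 bp 6.78 (4.47 to 9.87), and in those over 1000 bp 9.21 (6.55 to 12.6, 39 peaks). The 4 intervals overlapped. Intron bases within 100 bp of coding sequence had 8.62 peaks per Mb (7.49 to 9.88), a level whose interval overlapped that of coding sequence. From 1000 to 2000 bp into the intron it was 11 per Mb (10.4 to 11.7), and from 2000 to 5000 bp 11.7 (11.1 to 12.2), above both. Beyond 5000 bp it was 10.1 (9.76 to 10.3). The difference between coding sequence and these bins was not tested, and the bin within 100 bp of coding sequence also overlapped the one beyond 5000 bp. For 3′ UTRs, stretches of up to 1000 bp (9.92 per Mb, 7.43 to 13) and over 4000 bp (11 per Mb, 8.79 to 13.5) had overlapping intervals.

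**Figure D3:**
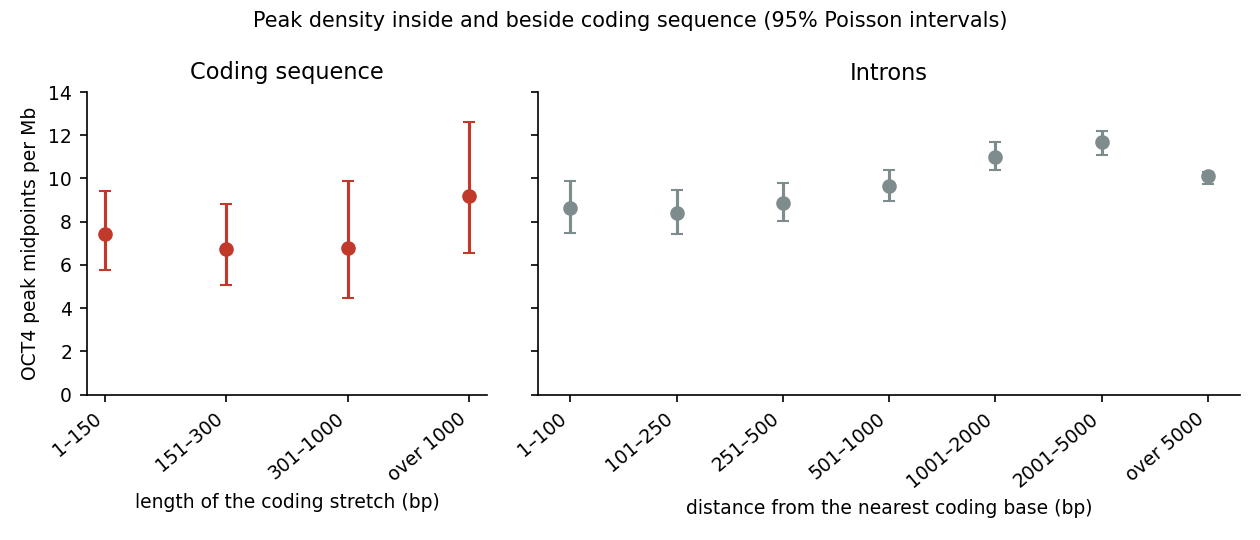
OCT4 peak midpoints per Mb with 95% Poisson intervals, in coding sequence by the length of the uninterrupted coding stretch in bp (left, red) and in introns by distance in bp from the nearest coding base (right, grey). Intron density goes from 8.62 per Mb within 100 bp of coding sequence to 11.7 per Mb at 2000 to 5000 bp.

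The composite motif was present in the central 200 bp of 9 of 186 coding-exon peaks (4.84%, Wilson interval 2.57 to 8.94%), 27 of 318 3′ UTR peaks (8.49%, 5.9 to 12.1%) and 877 of 8939 distal intronic peaks (9.81%, 9.21 to 10.4%). The octamer without mismatch was present in 5.38%, 7.86% and 8.03% of them. The SOX core was present in 16.1%, 16% and 21.1%. The motifs overlap, since the octamer is part of the composite and the SOX core holds most of its SOX half-site. Any of the 3 was found in 22.6% of coding-exon peaks (17.2 to 29.1%), 26.7% of 3′ UTR peaks (22.2 to 31.9%) and 33.5% of distal intronic peaks (32.5 to 34.5%).

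None of the 9 comparisons of these shares passed two-sided Fisher's exact tests with Benjamini-Hochberg adjustment over the 9, with peaks as units. The composite share of coding-exon peaks was below that of intronic peaks by Fisher's exact test before adjustment and not after it (difference -4.97 percentage points, interval -7.33 to -0.828, odds ratio 0.467, p = 0.0233, adjusted p = 0.133). The SOX core share of 3′ UTR peaks differed from that of intronic peaks by -5.07 points (-8.8 to -0.56, exact p = 0.0295, adjusted p = 0.133). For coding-exon against 3′ UTR peaks the composite shares differed by -3.65 points (-7.89 to 1.2, adjusted exact p = 0.342) and the SOX core shares by 0.0913 points (-6.29 to 7.07, adjusted p = 1). The coding-exon composite result depended on the settings. At up to 4 mismatches, the odds ratio of coding-exon against intronic peaks was 0.493 with an adjusted p of 0.00149. It was 0.604 at up to 2 mismatches and 0.726 with peaks of 45 to 55% GC, both with an adjusted p of 1. At up to 4 mismatches, that of coding-exon against 3′ UTR peaks was 0.526 with an adjusted p of 0.0228.

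Exons outside peaks hold these motifs less often. Among 143602 windows of 200 bp centred on coding stretches that met no peak, 0.614% had a composite match, 0.661% an octamer and 7.23% a SOX core. Among 141619 windows tiled over 3′ UTRs the shares were 1.04%, 1.29% and 7.14%. For each of the 3 motifs and both exon classes the interval of the peaks' share lay above the share of the windows. The 3′ UTR windows are exon sequence throughout, and the coding windows can include the flanks of short exons. The peaks' median GC content was 48.6% in coding exons and 46.9% in 3′ UTRs, and that of the windows was not measured. Over all bases of the class more than 1 kb from transcript starts, GC content was 50.8% in coding exons and 42.6% in 3′ UTRs. The part of base composition in these shares was not tested.

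**Figure D4:**
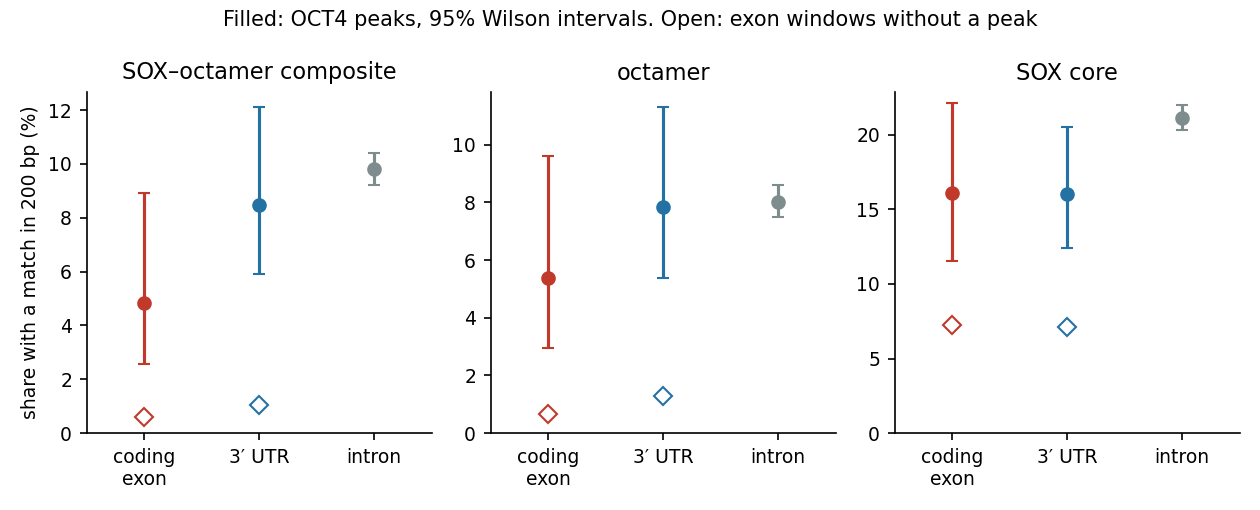
Share (%) of OCT4 peaks with a match in the central 200 bp (filled circles, 95% Wilson intervals) in coding exons, 3′ UTRs and introns, and of 200-bp exon windows without a peak (open diamonds), with 1 panel each for the SOX core, octamer and composite motif. For the composite motif the peaks stand at 4.84%, 8.49% and 9.81% and the windows at 0.614% and 1.04%.

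Seen from the motif, coding sequence held fewer composite and octamer matches per Mb than introns did, but not fewer SOX cores, and the share of matches that lay in a peak differed by motif. Composite matches with at most 3 mismatches occurred 617 times in coding sequence (24.6 per Mb), against 58.4 per Mb of 3′ UTR, 56.5 per Mb of intron and 64.7 per Mb of intergenic sequence. Of the coding matches 14 lay in an OCT4 peak (2.27%, 1.36 to 3.77%). The share was 1.94% for 35 of 1804 matches in 3′ UTRs, 2.44% for 1204 of 49315 in introns, and 1.61% in intergenic sequence, so the coding interval held each of these values. For the octamer, 14 of 755 coding matches (1.85%, 1.11 to 3.09%) lay in a peak. The octamer share was 1.65% in 3′ UTRs, 1.61% in introns and 1% in intergenic sequence (0.95 to 1.05%). Among octamers that are not repeat-masked it was 1.72% in coding sequence (0.985 to 2.98%), 1.78% in 3′ UTRs, 2.06% in introns and 1.59% between genes. The SOX core was about as frequent in coding sequence (384 per Mb) as in 3′ UTRs (379) and introns (389). Of its coding matches 0.664% lay in a peak (0.52 to 0.847%), below the 1% of introns (0.97 to 1.04%), with 0.861% in 3′ UTRs (0.71 to 1.05%). Of all bases, peaks covered 0.309% in coding sequence, 0.384% in 3′ UTRs, 0.4% in introns and 0.323% between genes. The part of this coverage in the shares of matches was not tested. A match here is a run of letters and not a measured contact.

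**Figure D5:**
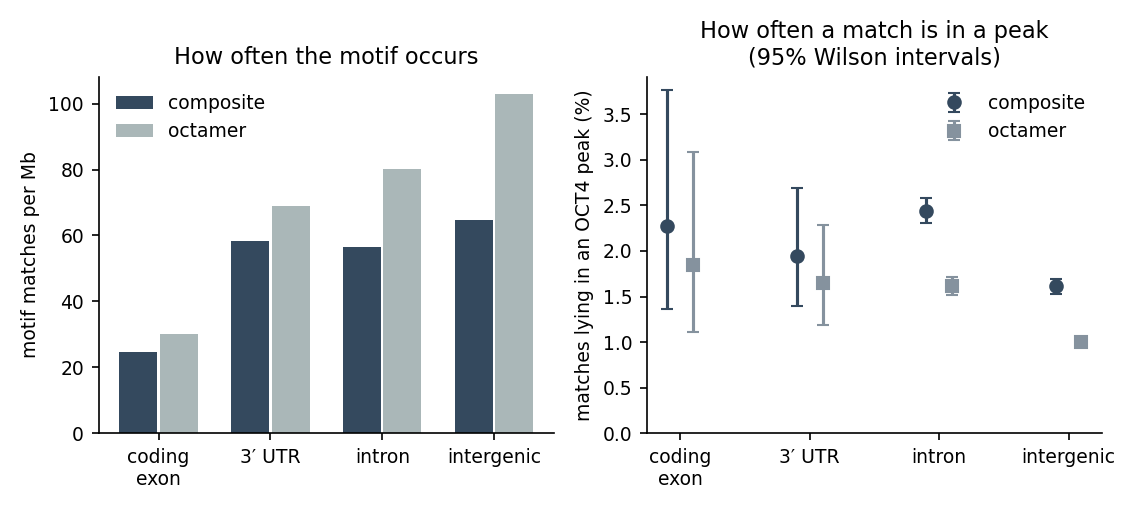
Matches per Mb of each class (left, bars) and share (%) of matches that lie in an OCT4 peak (right, 95% Wilson intervals), for the composite motif with at most 3 mismatches and the exact octamer. Coding exons have 24.6 composite matches per Mb against 56.5 in introns, while 2.27% and 2.44% of them lie in a peak.

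Within coding-exon peaks, matches were in the exon as well as beside it. The 43 kb of exon sequence under these peaks held 12 composite matches (0.279 per kb, 0.144 to 0.487) and the 24.5 kb outside exons held 4 (0.163 per kb, 0.0445 to 0.418). There were 14 octamers in the exon part and 3 outside, and 38 SOX cores against 14. The intervals per kb overlapped for all 3 motifs. Composite matches pointed along the host gene in 5 cases and against it in 11 in coding-exon peaks, and in 21 and 13 cases in 3′ UTR peaks. The median distance from a composite match to the midpoint was 79.2 bp in coding-exon peaks, 53.5 bp in 3′ UTR peaks and 48.2 bp in intronic peaks.

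Over whole peaks, 16 coding-exon peaks had a composite match with at most 3 mismatches. Besides Utrn, Ncoa1 and Slc25a43 they were in Cry2, a circadian repressor gene, Pcdh10, a protocadherin gene, Tead1, the gene of a TEA-domain transcription factor, the zinc-finger gene Zfp689, Wars2, AI481877, Kbtbd2, Spaca7, Fat3, Kcnh6, Heatr5a, Akap11 and Timp1. The Pcdh10 match was in a 231-bp peak inside a first exon of 3459 bp, the Cry2 match in a 623-bp peak over exon 3 of 12, with 23% of the peak in exons. In 3′ UTR peaks there were 33, among them Sp9 with 2 octamers, Six3 and Mycl, all genes of transcription factors. Sp9, Six3, Mycl and the hosts with 3 mismatches were named after their values were seen. At the other end, 114 of 186 coding-exon peaks and 185 of 318 3′ UTR peaks held no composite match, octamer, SOX core or POU variant. This count was not made for intronic peaks, so it is not shown to be particular to exonic ones. Over whole peaks, a SOX core was present in 25.3% of coding-exon, 27.7% of 3′ UTR and 30.7% of intronic peaks. A composite match was present in 8.6%, 10.4% and 12.8% of them.

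In 5 genes a pair of peaks fell in coding exons. In Ttc14 and in the zinc-finger gene Zfp780b both were in 1 exon, with midpoints 359 and 611 bp apart. In Sfi1, of the centrosome, they were 749 bp apart over exons 30 and 32 of 33, in Kif13a, a kinesin gene, 22009 bp apart over exons 5 and 14 of 38, and in Ryr1, which encodes a calcium release channel, 37089 bp apart over exons 41 and 89 of 109. The Zfp780b pair was 43.9% and 86.5% multi-copy, the share of 31-base words found at more than 1 place in the genome, where reads are hard to place. The Sfi1 pair was 16.8% and 19.9% multi-copy, and for Ttc14, Kif13a and Ryr1 that share was 0%.

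Some genes also held a pair of 3′ UTR peaks. In Foxd1, a forkhead factor gene of 1 exon, they were 2405 bp apart, and in Fzd8, a WNT receptor gene of 1 exon, 1525 bp. The Fzd8 pair included a peak of 421 bp with a composite match at 3 mismatches, 2 SOX cores and a POU variant, while neither Foxd1 peak had a composite match. Pairs were also present in Slamf6 (573 bp apart), Cuedc1 (679 bp), Tnrc6b (1545 bp), Tyms (1067 bp), Ifitm7 (1419 bp) and D10Wsu102e (108467 bp). Of the Tyms pair, the 710-bp peak was 77.6% repeat-masked and 51.5% multi-copy, and of the Ifitm7 pair the 250-bp peak was 69.6% and 68.6%. In D10Wsu102e the annotated exon is 122802 bp long, and the peaks were 95.9% and 95.5% repeat-masked and 81.3% and 82.3% multi-copy.

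Host genes were compared with lists of regulators, beside 2.84% of 21911 protein-coding genes that hosted an exonic peak. From a pluripotency list 1 of 41 genes was a host (2.44%), Fgf4. From a list of FGF, WNT, Nodal, BMP and LIF signalling genes 2 of 38 were hosts (5.26%), both with coding-exon peaks. The Bmp4 peak, in the gene of a ligand of the TGF-beta superfamily, was 388 bp wide, 86.1% exonic over exon 3 of 4, and 1349 bp from a transcript start. In Fgfr2, a receptor of FGF ligands, the peak was 247 bp wide over exon 6 of 18 with 50.2% of its bases exonic. Neither had a composite match within 3 mismatches, and the Fgfr2 peak had 1 SOX core. None of 36 genes on a lineage list, such as Cdx2, Gata6, Sox17 and Pax6, and none of 53 on a list of chromatin regulators, such as Smarca4 and Ezh2, was a host. These lists are short, and hosts outside them include chromatin genes (Nsd1, Hdac4 and Smarca5) and homeobox or forkhead genes (Six3, Gsx2, Nkx6-1 and Foxd1), named here after their values were seen. The Hdac4 and Smarca5 peaks lay in other exons. How many genes of these kinds were hosts, and out of how many, was not counted.

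Some hosts belonged to gene families, and the part of exon length in their number was not tested. Zinc-finger genes by symbol numbered 29 hosts of 467 (6.21%), with 14 coding-exon peaks in 13 genes. Of these 14 peaks 12 were in exons over 1 kb, and 10 lay wholly in exons, against 53 and 54 of all 186 coding-exon peaks. A composite match was present in 1 (Zfp689), and 4 were over 50% multi-copy (Zfp978, Zfp984, Zfp974 and 1 of the Zfp780b pair). Over all 186 coding-exon peaks these numbers were 16 and 7. Cadherin and protocadherin genes numbered 24 hosts of 96 (25%), but 21 of these are protocadherin gamma genes that share 1 last exon of 1971 bp, so that 1 peak of 337 bp counts for all of them. Pcdh10 and Pcdh19 were hosts by coding-exon peaks and Cdh13 by an other-exon peak.

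Olfactory receptor genes, which encode odorant sensors, hosted 13 of the 318 3′ UTR peaks, a family named after the values were seen. Over all 21911 protein-coding genes, 333 hosted a 3′ UTR peak. The genes of the olfactory receptor family were not counted, so its share of hosts is unknown here. All 13 were in exons over 1 kb and in the last exon, as were 282 and 316 of all 318 3′ UTR peaks. Their repeat-masked share was 60.9% at the median (15.9 to 92.6%), and 8 of 13 were over 50% masked, against 31 of all 318 3′ UTR peaks (9.75%, 6.95 to 13.5%). The least masked were in Olfr354 (15.9%) and Olfr15 (16.5%), both with 0% multi-copy bases. Only Olfr1238 had a composite match within 3 mismatches, beside 33 of all 318 3′ UTR peaks.

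In width and spacing the exonic peaks were close to other distal peaks. Median widths were 326.5 bp in coding exons, 337 bp in 3′ UTRs, 349 bp in introns and 363 bp between genes. Another OCT4 peak lay within 10 kb of 33.9% of coding-exon peaks (27.5 to 40.9%) and 33.3% of 3′ UTR peaks (28.4 to 38.7%), against 32.1% of intronic ones (31.2 to 33.1%). Over 50% repeat-masked were 1 coding-exon peak (0.538%, 0.095 to 2.98%), 9.75% of 3′ UTR peaks, 11.6% of intronic peaks and 23.4% of intergenic peaks. Multi-copy peaks made up 3.76%, 4.4% and 4.14% of coding-exon, 3′ UTR and intronic peaks.

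At the 1 kb limit, the nearest coding-exon peak that was counted was in Ier5, an immediate early gene (1006 bp from a start, 235 bp wide), and the nearest left out was 982 bp from the start of Olfr50 (558 bp wide). For 3′ UTRs they were a peak in Dpagt1, an enzyme of N-glycosylation, at 1005 bp from the start of Gm48853 (473 bp wide), and one at 999 bp from the start of Gm16033 (209 bp wide). The Dpagt1 peak had a composite match with 3 mismatches and an octamer. Of all peaks with a coding midpoint 240 were inside the limit, more than the 186 outside it. Of 3′ UTR midpoints 56 were. The bases inside the limit were not counted, so these counts are not densities.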

How the data were processed

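The authors aligned reads to mm10 with STAR 2.6.1c, removed duplicates with Picard, called peaks with MACS2 2.1.1.20160309 on read pairs, and joined the resulting files by means of BEDTools. The deposited list holds a chromosome, start and end coordinate per merged peak, with no header and no other column. Library depth is therefore unknown here, and merging makes a width that of the union of peaks.

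Midpoints were classed with GENCODE M21 annotation on GRCm38, including all transcripts, and transcript starts of all gene types were used for the 1 kb limit. Distal intronic peaks, the comparison group, met the same limit. Repeat-masked bases are those in lower case in the RefSeq copy of the GRCm38 sequence, from which the printed sequences were also read. Two-sided Fisher's exact tests were run on shares of peaks, with Benjamini-Hochberg adjustment over 9 tests. Peaks named are, per class, those with a composite match of at most 2 mismatches, the 3 widest, those sharing a host gene, those in listed genes and those nearest the 1 kb limit, and others are marked. Exonic peaks, gene lists and tests were chosen with earlier results of these data known. Scripts were tested on simulated data. BRG1 and H3K27ac libraries were not analysed here. The peaks of 1 host gene that the rule would name are not reported here. Python 3.11.15, NumPy 2.4.6, SciPy 1.17.1, pandas 2.3.3 and matplotlib 3.10.9 were used.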

Additional observations from a re-analysis of the deposited data

How the results depend on the processing

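Across 13 results and 102 alternatives, 88 alternatives kept the direction, the side of the threshold and, for counts and densities, the size within 1.5 times or within the counting interval. At up to 4 mismatches, the composite odds ratio of coding-exon against distal intronic peaks (0.493) and against 3′ UTR peaks (0.526) passed the threshold. The odds ratio of the SOX core for coding-exon against 3′ UTR peaks, 1.01 in the reported setting, was 0.884 over whole peaks, 0.996 with peaks under 50% repeat-masked and 0.823 with at least 50% of the peak in the class. That of the octamer for 3′ UTR against intronic peaks, 0.977 as reported, was 1.01 with peaks under 50% repeat-masked and 1.03 with peaks under 50% multi-copy, an alternative added after seeing the data. With peaks of 45 to 55% GC the octamer odds ratio of coding-exon against 3′ UTR peaks was 1.22, and at up to 2 mismatches the composite odds ratio of 3′ UTR against intronic peaks was 1.07. None of these reversed values passed the threshold. The composite odds ratio of coding-exon against intronic peaks, 0.467 as reported, ranged from 0.41 to 0.726 over its alternatives. With at least 50% of the peak in coding sequence 117 coding-exon peaks were left. With peaks of at least 300 bp, 107 coding-exon and 197 3′ UTR peaks were left, at 4.27 and 6.38 per Mb. The cause of these shifts was not tested, beyond the smaller number of peaks. No paired analysis was possible because no library is named in the list, and leaving out each replicate was not run for the same reason. A peak missing from the list cannot be told from one below the calling threshold.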

Other observations

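Outside coding exons and UTRs, the closest composite match of any exonic peak was in an other-exon peak of Prrc1, with 1 mismatch. Other-exon peaks of Cdc14a, Casz1, Rftn1 and Etnk1, a gene of phospholipid synthesis, had one with 2 mismatches. These hosts were named after their values were seen. Other-exon peaks also came in pairs in 1 exon of Notch1, a receptor gene (midpoints 960 bp apart), Fech, of haem synthesis (1366 bp), Epb41l4a (1239 bp), Pdgfrl (779 bp), Prag1 (1254 bp) and Spats1 (798 bp). In 7 genes 1 coding-exon peak and 1 3′ UTR peak were present, namely AF366264, C530008M17Rik, Cacna1c, Grin2b, Irs1, St3gal2 and St8sia1. The Cacna1c pair, in a calcium channel gene, was 399 bp apart. The Grin2b pair, in a glutamate receptor gene, was 60498 bp apart, and the Irs1 pair, in the gene of an insulin receptor substrate, 54857 bp apart.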
